A study of Rattus norvegicus with 15 samples.

Results

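Cadherins and protocadherins are the calcium-dependent adhesion proteins of the cadherin superfamily, and their transcripts were followed in hippocampus and cortex of rats given vagus nerve stimulation (VNS) through an implanted device. Members were every RefSeq transcript record of the count tables whose rat symbol starts with Cdh and a digit, or with Pcdh. The rule found 54 records, each with its own symbol, among 18278 records in all. They were 19 cadherins and 35 protocadherins, and 25 of the protocadherins belong to the clustered alpha (1), beta (11) and gamma (13) groups. Another 22 symbols of the same form, Cdh4, Pcdh10 and Pcdhgc5 among them, matched no record and were not analysed here. The rule could not take in records without a symbol, among them several that share exons with the alpha member Pcdha4.

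Stimulated rats received VNS for 30 min on each of 4 days in a row, whereas the controls had a sham device implanted. The animals behind the hippocampal libraries (3 control, 4 VNS) also performed a novelty preference task of 10 min on days 2 to 4. The cortex libraries numbered 4 control and 4 VNS. Brains were taken directly after the last session. The labels state no strain, sex or age. Nothing in the labels ties a library to a litter, so p-values measure the spread between libraries only.

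Classical cadherins join 2 cell membranes through repeated extracellular domains and are tied to actin inside the cell by catenins. Type I members such as N-cadherin are broadly expressed at synapses, whereas type II members mark subsets of neurons and the pathways between brain regions. Delta protocadherins adhere more weakly and are also expressed region by region. Clustered protocadherins are switched on from alternative promoters in each neuron, and the resulting combination is known for self-recognition of dendrites and axons.

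The hippocampal libraries held 16728486 to 51463555 counts and the cortex libraries only 329130 to 435296. VNS library 3 of hippocampus was the shallowest, with 74.3% of its counts on ribosomal and 7SL RNA against 17.2% to 40.4% in the other 6. Control libraries 1 and 2 went against their tissue label in several regional markers, though not in all. Neurod6, which encodes a helix-loop-helix factor of excitatory forebrain neurons, stood at 0.652 and 1.05 CPM (reads scaled to a common library size) there, 81.4 in control library 3, and 58.9 to 207 in the VNS libraries. The 6 measured forebrain excitatory markers summed to 243 and 11 CPM in control libraries 1 and 2, to 1461 in control library 3 and to 1326 to 2115 after VNS. Slc17a7 gave 237 of the 243 CPM. The 2 measured dentate granule markers were less apart, at 112 and 49.9 CPM, then 138, and 131 to 234 after VNS. Of these, Prox1 stood at 89.8 and 15.3 CPM in control libraries 1 and 2, 80.0 in control library 3 and 84.2 to 164 after VNS. The 5 measured thalamus and midbrain markers summed to 1252 and 500.5 CPM in control libraries 1 and 2, to 54.1 in control library 3 and to 22.5 to 141 after VNS. Prkcd gave 794 of the 1252 CPM. Slc17a6, Lef1 and Calb2 were above the other 5 libraries in both control libraries 1 and 2. Prkcd and Gbx2 were above them in control library 1 only. In control library 2 these stood at 11.8 and 1.70 CPM, against 41.2 and 1.99 in VNS library 2. Oligodendrocyte markers (7 of 7 measured) summed to 6751 and 5517 CPM, then 3638, and 1736 to 4033 after VNS. The 6 brainstem markers summed to 34.9 and 106 CPM, then 9.15, and 6.5 to 22.9, and of these Gata3 and Sox14 were at 0 in 3 or more of the last 5 libraries. Glra1 and Tal1 were above those 5 libraries in both control libraries 1 and 2. Gata2, Gata3 and Sox14 were above them in control library 2 only. Slc6a5, at 4.36 and 3.90 CPM, lay within their range. The part of these differences in any result that follows was not tested, so hippocampal log2 fold changes are also given without control libraries 1 and 2. In tissue RNA, fewer cells of a type and less RNA per cell cannot be told apart.

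The promoters of 4 members are shown first because they illustrate both orders of the hippocampal libraries: the type II cadherins Cdh6 and Cdh7, which were higher in control libraries 1 and 2, and the protocadherins Pcdh8 and Pcdh20, which were lower there. Each is the 250 bases before the annotated start, from the RefSeq table of assembly GRCr8. Capitals mark CANNTG, the E-box bound by basic helix-loop-helix factors such as Neurod6. The windows lie at chr2:63952288-63952537 on the minus strand for Cdh6, chr13:27197332-27197581 on the plus strand for Cdh7, chr15:61612091-61612340 on the minus strand for Pcdh8 and chr15:70840299-70840548 on the minus strand for Pcdh20.
Cdh6: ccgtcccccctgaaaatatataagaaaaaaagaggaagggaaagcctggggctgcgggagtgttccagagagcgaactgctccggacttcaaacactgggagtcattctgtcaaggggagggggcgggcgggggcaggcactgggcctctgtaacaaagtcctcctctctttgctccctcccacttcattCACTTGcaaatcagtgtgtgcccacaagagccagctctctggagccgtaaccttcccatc
Cdh7: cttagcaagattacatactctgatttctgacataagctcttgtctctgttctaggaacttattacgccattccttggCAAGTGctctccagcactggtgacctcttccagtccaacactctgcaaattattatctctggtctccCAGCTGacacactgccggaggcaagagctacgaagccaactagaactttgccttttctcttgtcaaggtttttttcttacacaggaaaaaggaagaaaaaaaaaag
Pcdh8: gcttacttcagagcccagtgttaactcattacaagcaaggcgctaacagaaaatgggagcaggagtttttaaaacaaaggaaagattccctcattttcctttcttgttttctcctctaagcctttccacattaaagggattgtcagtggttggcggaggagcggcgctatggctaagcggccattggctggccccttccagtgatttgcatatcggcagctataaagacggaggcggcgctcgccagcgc
Pcdh20: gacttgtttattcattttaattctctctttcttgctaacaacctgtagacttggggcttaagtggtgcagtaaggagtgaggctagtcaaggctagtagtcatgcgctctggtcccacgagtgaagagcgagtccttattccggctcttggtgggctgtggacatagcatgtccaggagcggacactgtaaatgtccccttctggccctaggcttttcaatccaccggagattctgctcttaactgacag
The letters CANNTG, which read as the same pattern on both strands, occurred once in the Cdh6 window, at 2 places in the Cdh7 window and at 0 in those of Pcdh8 and Pcdh20. Among the 43 members with a promoter in the table, 25 held the motif (58.1%), against 65.5% of all 33469 windows of that length. The 4 windows were picked by library order, and other members of the same orders went either way. Among those higher in control libraries 1 and 2, Cdh19 held 4 matches and Cdh20 and Pcdh18 held 0. Among those lower there, Pcdha4 held 2 and Pcdhga7 held 0. A match is a string of letters, not a measured site.

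Levels of different genes were compared as hippocampal CPM per kilobase of exon not shared with another record. On that scale Pcdhgc3, the gamma-C3 protocadherin, had the highest mean over the 7 libraries at 52.5 (range 36.6 to 68.8). Pcdh9, a delta-1 protocadherin, followed at 37.7 (30.2 to 56.4), then Cdh2, which encodes N-cadherin, at 33.8 (30.4 to 37.9). Pcdh8 stood at 28.5, Pcdh7 at 26.7, Cdh13 at 26.0, Pcdh17 at 23.0 and Pcdh19 at 22.3. The library ranges of each neighbouring pair in this order of 8 overlapped. At the other end were Cdh3 at 0.220, Cdh1, the epithelial E-cadherin, at 0.194, Cdh26 at 0.174 and Pcdh12, an endothelial protocadherin, at 0.155. Cdh17 and Cdh16, known from gut and kidney epithelium, came last at 0.0142 and 0.00902. Cdh16 had 10 counts in all, each of them in control library 2. Beta records hold 1 or 2 exons and type II records 11 to 21, and the sources used here do not say how reads across introns were aligned, so levels of these classes carry that difference.

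**Figure D1:**
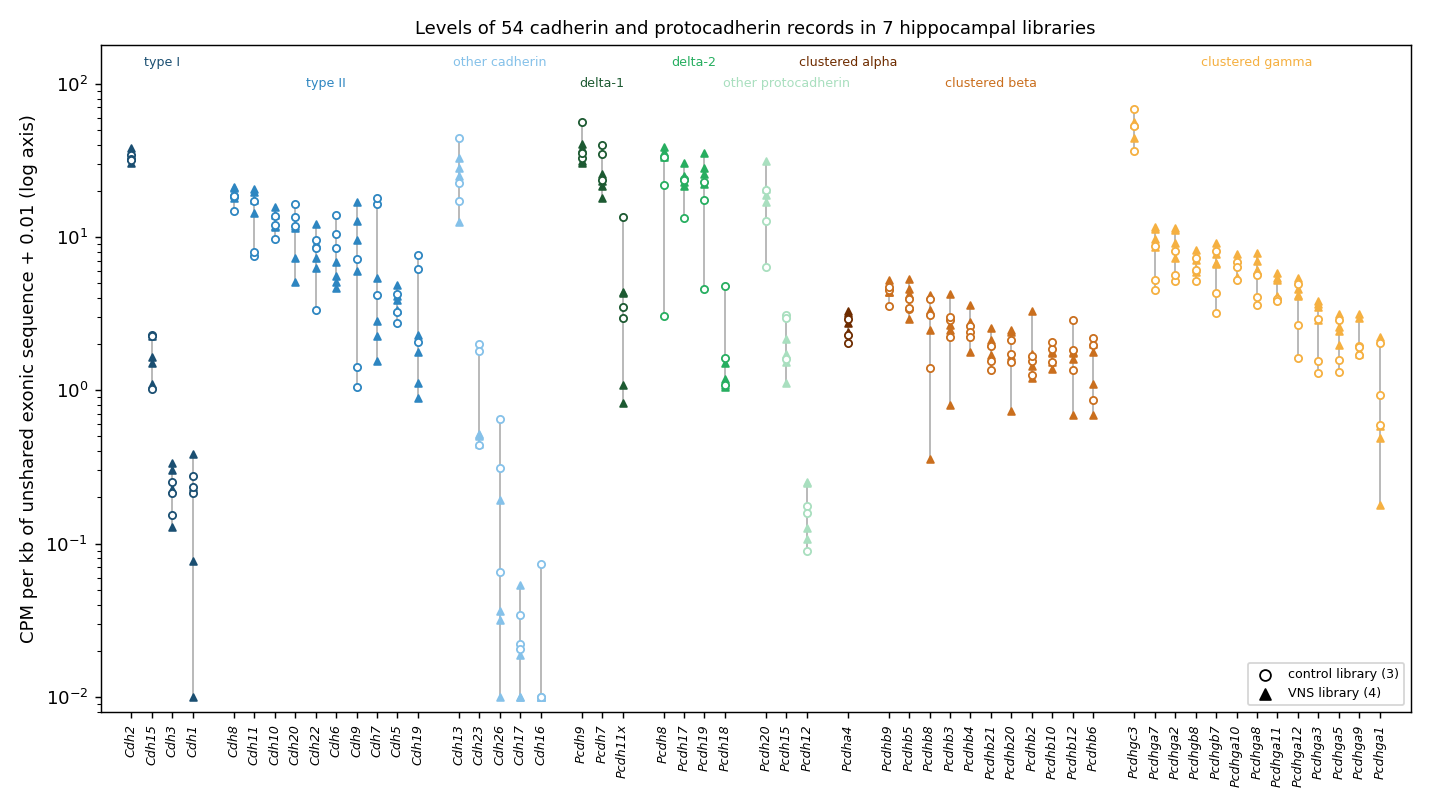
Level of each of the 54 records in the 7 hippocampal libraries, as CPM per kilobase of unshared exon plus 0.01 on a log axis, with open circles for control and triangles for VNS libraries. Pcdhgc3, Pcdh9 and Cdh2 stand at the top with means of 52.5, 37.7 and 33.8, and Cdh17 and Cdh16 at the bottom.

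The comparison of VNS with control asks whether stimulation was accompanied by another level of these adhesion transcripts. In hippocampus no cadherin or protocadherin was called: 0 of the 51 members that passed the low-count filter had an adjusted p under 0.05 in edgeR's quasi-likelihood test, against 0% of all 12728 records. At an unadjusted p under 0.05 the test picked 13 members, 7 with a higher mean after VNS (4.79% of all records) and 6 with a lower one (7.28% of all records). Together they are 25.5% of the members, beside 12.1% of all records. DESeq2 called 1 member, Cdh6, among 17 records in all (0.134%), and put 15% of records at an unadjusted p under 0.05. Limma-voom called 0 records, with 14.8% of them at an unadjusted p under 0.05. The members' median log2 fold change was 0.15 (31 positive, 20 negative), against -0.0068 over all records, of which 49.2% were positive. The 4 VNS libraries all lay above the 3 controls for 2 members, Pcdhga8 and Pcdhga11 (4.67% of all records), and all below for 2, Cdh6 and Cdh20 (4.61% of all records). Those 4 are 7.84% of the members, and 9.28% of all records had groups that did not overlap.

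Control libraries 1 and 2 often lay together at one end. Both lay above the other 5 libraries for 10 members (17.3% of all records) and both below for 14 (18.3% of all records), together 47.1% of the members against 35.6% of all records. Control library 3 lay within the VNS range for 41 of 51 members, or 80.4%, against 73.5% of all records. It was above all VNS libraries for 3 members (Cdh6, Cdh20 and Pcdhb12, the last named after its values were seen; 13.3% of all records) and below them for 7 (13.2% of all records). Without control libraries 1 and 2, edgeR called 0 members and 1 member, Cdh6, had an unadjusted p under 0.05, beside 105 of 13111 records (0.801%), and the median became 0.073. Without control library 3 instead, edgeR called 15 of 52 members (28.8%), beside 10.6% of all records. Of those 15, 8 were higher (6.24% of all records) and 7 lower after VNS (4.41% of all records).

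**Figure D2:**
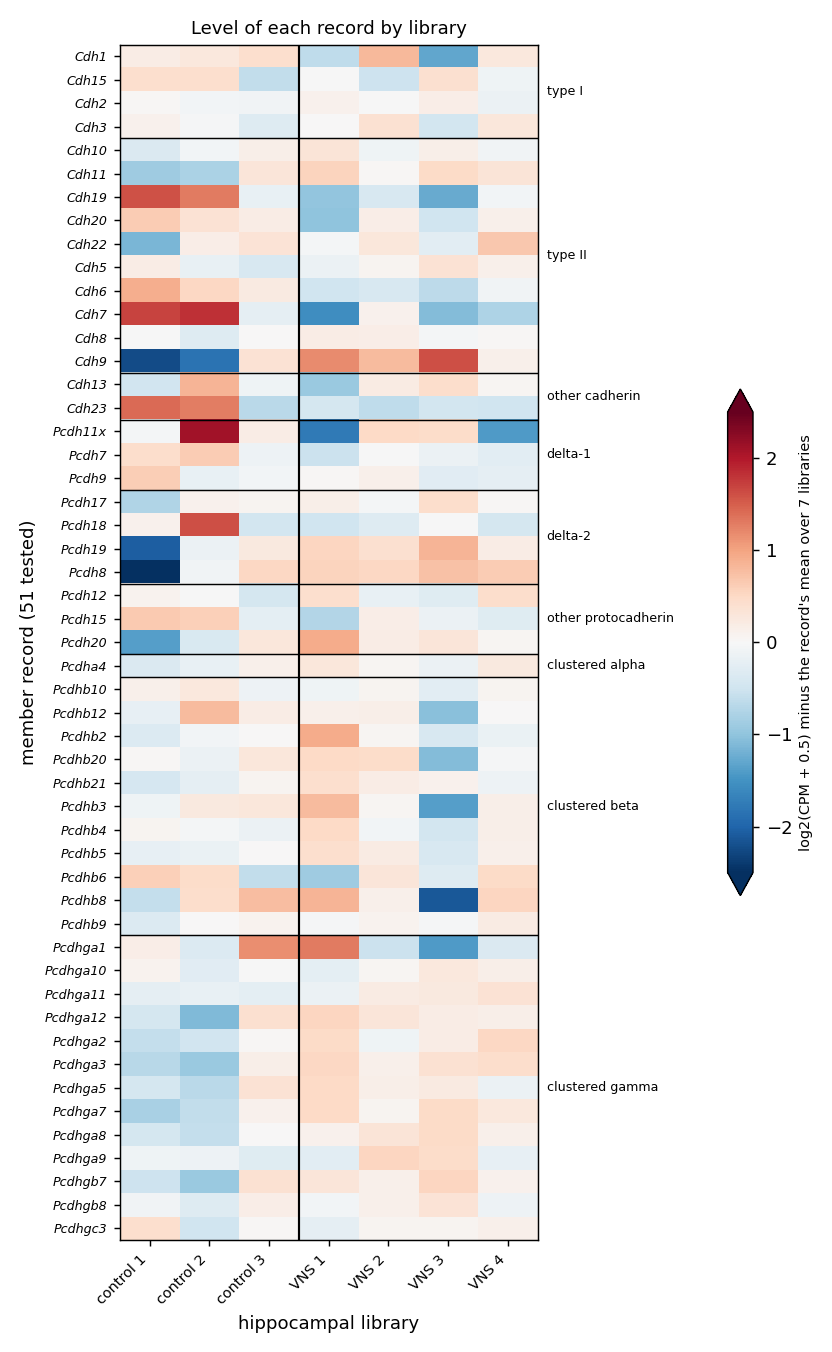
Heat map of the 51 tested members (rows) in the 7 hippocampal libraries (columns); colour is log2(CPM + 0.5) minus the record's mean, limited to 2.5 in either direction. Control libraries 1 and 2 share colours for Cdh7, Cdh19 and Cdh23, where both are high, and for Cdh9 and Cdh11, where both are low, while control library 3 lies within the VNS range in 41 of the 51 rows.

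**Figure D3:**
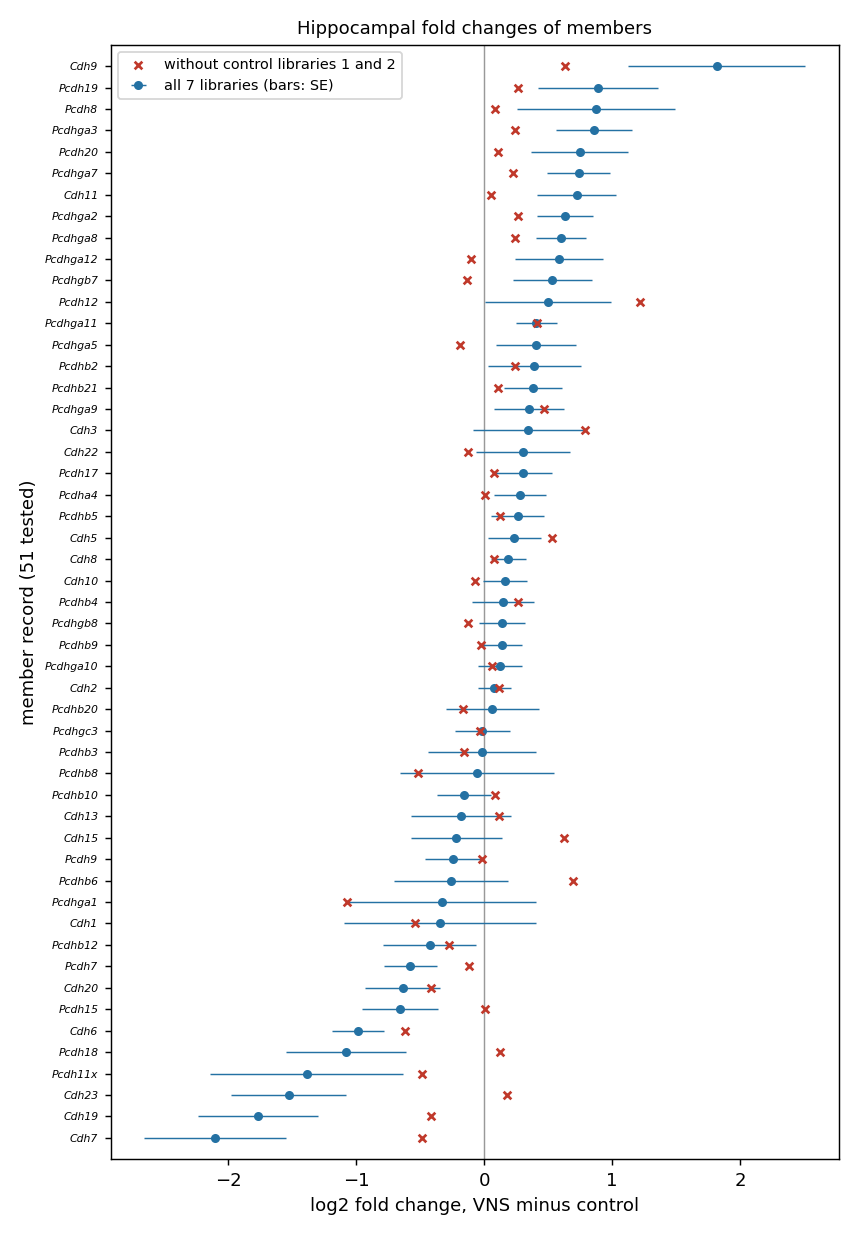
Log2 fold change of VNS against control in hippocampus for the tested members, with its SE over all 7 libraries, and, as crosses, the same contrast without control libraries 1 and 2. Cdh7 lies at -2.10 with all libraries and at -0.49 without those 2, and Cdh9 at 1.82 and 0.63.

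Among type I cadherins the groups overlapped throughout, and 0 of the 4 tested members had an unadjusted p under 0.05. Cdh2 (NM_031333, rn5 chr18:7997533-8218006), the N-cadherin of neuronal synapses, had 150 CPM in control library 1, 140 in library 2 and 138 in library 3, and 159, 146, 165 and 132 CPM in VNS libraries 1 to 4. It was the steadiest of the abundant members, with a highest-to-lowest ratio of 1.25, and its log2 fold change was 0.079 (SE 0.13; edgeR adjusted p = 0.79), and 0.11 without control libraries 1 and 2. Cdh1 had 44, 54 and 56 counts in the control libraries and 20, 34, 0 and 40 counts after VNS. The 0 in VNS library 3 allows up to 0.610 CPM at 3 counts, which covers counting error only. Its log2 fold change was -0.35 (SE 0.75; -0.54 without control libraries 1 and 2), a difference not detectable at this depth.

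Type II cadherins held 5 of the 13 members at an unadjusted p under 0.05, from 10 tested, beside 12.1% of all records. Their summed level was nonetheless alike, 294 to 326 CPM in control and 310 to 330 CPM in VNS libraries. Cdh6 (NM_012927, rn5 chr2:81448794-81594432, 21 exons), a type II cadherin known from kidney and restricted neuronal groups, had the smallest p of all members. It stood at 49.5, 37.4 and 30.3 CPM in the control libraries and at 18.2, 19.7, 16.5 and 24.3 CPM after VNS. Every VNS library was below every control library, control library 3 included. The means were 39.1 ± 9.70 (SD, n = 3) and 19.7 ± 3.36 CPM (SD, n = 4), a log2 fold change of -0.98 (SE 0.20; edgeR adjusted p = 0.40). DESeq2 gave -0.99 with an adjusted p of 0.042, and over the 14 other settings the estimate ran from -1.13 to -0.62 with adjusted p from 0.0104 to 1. Without control libraries 1 and 2, edgeR gave -0.62 (SE 0.24; adjusted p = 1).

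Cdh20 (rn5 chr13:30018338-30085298), another type II cadherin, also had all VNS libraries below the controls. Its values were 40.0, 32.9 and 28.9 CPM in control and 12.4, 28.7, 17.9 and 27.9 CPM after VNS. The gap between control library 3 and VNS library 2 was therefore small, and the log2 fold change was -0.64 (SE 0.29; edgeR adjusted p = 0.40), and -0.42 without control libraries 1 and 2.

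Cdh7 and Cdh19, both on chromosome 13, divided the libraries in another way. Cdh7 (NM_001012737, rn5 chr13:36230292-36366642) had 39.0, 42.6 and 9.90 CPM in the control libraries and 3.66, 12.7, 5.29 and 6.62 CPM after VNS. Control libraries 1 and 2 were high and control library 3 lay inside the VNS range, so the groups overlapped. The log2 fold change was -2.10 (SE 0.56; edgeR adjusted p = 0.40), and -0.49 without those 2 libraries. Cdh19 (rn5 chr13:37483991-37565246), known from glia of the nerve lineage, had 17.8, 14.4 and 4.80 CPM in control and 2.58, 4.13, 2.03 and 5.30 CPM after VNS. Here too control library 3 lay inside the VNS range, and the estimate of -1.77 (SE 0.47) became -0.41 without libraries 1 and 2. The summed oligodendrocyte and thalamus and midbrain markers were highest in the same 2 libraries, and their part was not tested.

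Cdh9 and Cdh11 ran the opposite way across the libraries. Cdh9 (NM_001168630, rn5 chr2:86724081-86810245) is the type II cadherin known for the contacts between dentate granule cells and CA3 neurons. It had 3.01, 4.11 and 20.8 CPM in control and 37.1, 27.9, 49.6 and 17.5 CPM after VNS, with only control libraries 1 and 2 apart from the rest. Its highest-to-lowest ratio was 16.5, and its log2 fold change of 1.82 (SE 0.69; edgeR adjusted p = 0.40) became 0.63 without them. Cdh11 (rn5 chr19:2374108-2531571) had 38.5, 41.3 and 89.1 CPM in control and 107, 73.9, 101 and 90.1 CPM after VNS. Its estimate of 0.72 (SE 0.31) became 0.050 without libraries 1 and 2. The CA pyramidal markers (4 of 4 measured, with Spink8 at or near 0 in every library) summed to 54.6 and 148 CPM in those libraries and to 353 to 629 CPM in the other 5. The dentate granule markers (2 of 3 measured) summed to 112 and 49.9 CPM there and to 131 to 234 CPM in the other 5. The part of either list was not tested.

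The other type II members had smaller estimates. Cdh8, which is expressed along particular cortical and hippocampal pathways, had 57.7, 46.4 and 58.2 CPM in control and 66.3, 65.0, 56.1 and 59.1 CPM after VNS (log2 fold change 0.19, SE 0.14; 0.075 without control libraries 1 and 2). Cdh10, also neuronal, ran from 31.0 to 49.9 CPM over the 7 libraries (0.16, SE 0.17; -0.069 without those 2). Cdh22 was more uneven, from 11.6 CPM in control library 1 to 42.2 CPM in VNS library 4, with an estimate of 0.30 (SE 0.37) that was -0.13 without control libraries 1 and 2. Cdh5, the VE-cadherin of endothelial junctions, had 9.92, 7.57 and 6.44 CPM in control and 7.78, 9.13, 11.4 and 9.61 CPM after VNS. The estimate was 0.23 (SE 0.21; edgeR adjusted p = 0.60), and 0.53 without control libraries 1 and 2, while the summed endothelial markers were 203 to 292 CPM in control and 134 to 215 CPM in VNS libraries.

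**Figure D4:**
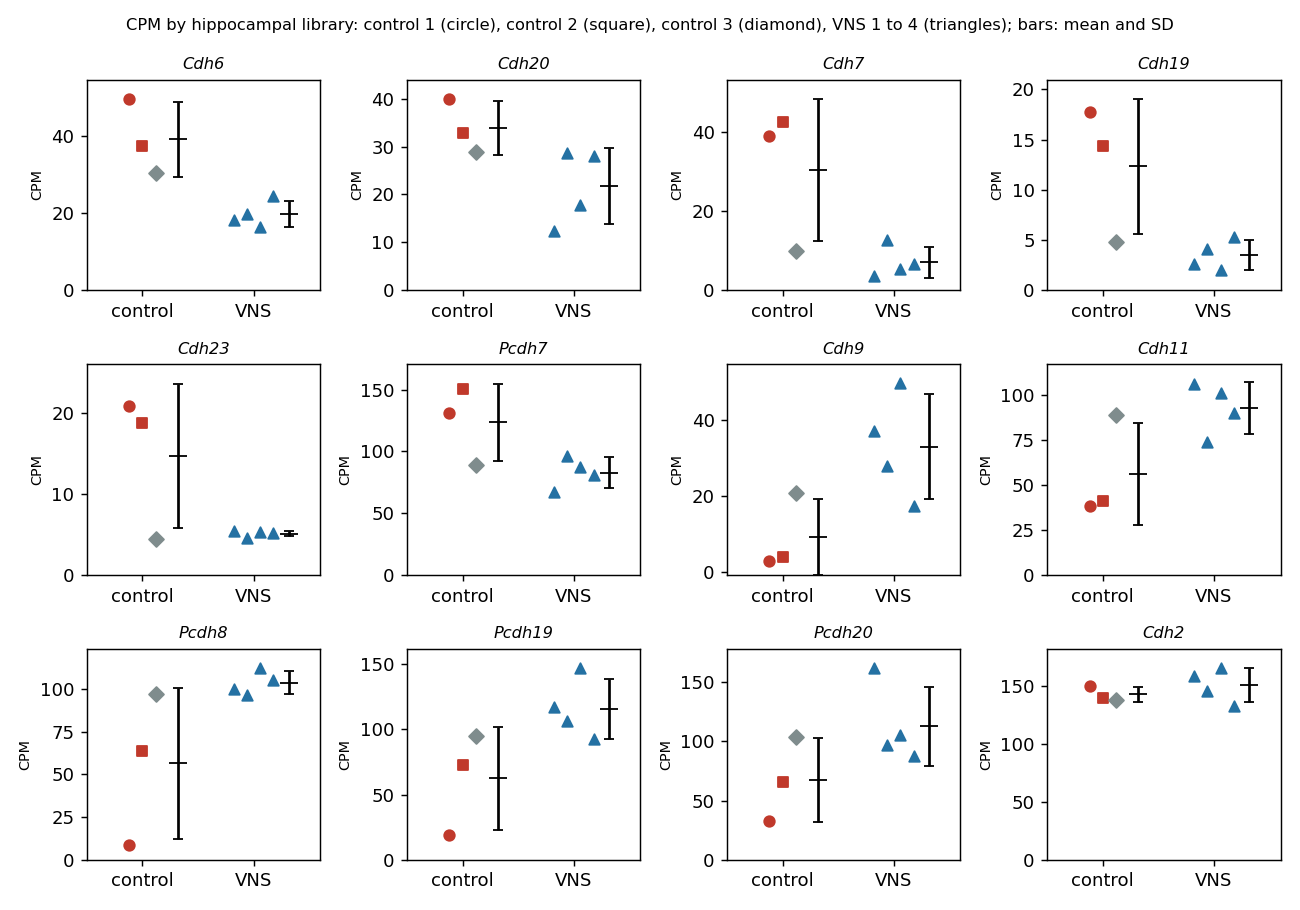
CPM of 12 members in each hippocampal library, control against VNS, with bars for the group mean and SD; each panel has its own linear axis. For Cdh6 the VNS libraries (16.5 to 24.3 CPM) sit below all controls, and Cdh2 shows overlapping groups. For Cdh7 and Cdh19 control library 3 sits among the VNS libraries, and for Cdh23 it sits just below them.

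Of the 5 atypical cadherins, 2 were tested. Cdh13, the T-cadherin that is held to the membrane by a lipid anchor, had 58.4, 149 and 75.8 CPM in control and 42.6, 94.9, 111 and 84.4 CPM after VNS. The spread within each group exceeded the difference (log2 fold change -0.18, SE 0.39; 0.11 without control libraries 1 and 2). Cdh23 (NM_053644, rn5 chr20:31668747-32073985, 66 exons), known with Pcdh15 for the tip links of inner-ear hair cells, had 20.9, 18.8 and 4.49 CPM in control and a narrow 5.39, 4.61, 5.29 and 5.15 CPM after VNS. Control library 3 was the lowest of all 7, the estimate of -1.53 (SE 0.45; edgeR adjusted p = 0.40) turned to 0.17 without control libraries 1 and 2, and Pcdh15 went from -0.65 (SE 0.30) to 0.0028. Cdh26 did not pass the filter: it had 70, 37 and 6 counts in the control libraries and 4, 1, 2 and 0 after VNS.

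Delta-1 protocadherins had lower means after VNS in all 3 tested members. Pcdh7 (rn5 chr14:54787854-55216825) had 131, 150.5 and 89.1 CPM in control and 67.0, 96.6, 87.2 and 80.7 CPM after VNS, so that control library 3 lay within the VNS range. Its log2 fold change was -0.58 (SE 0.21; edgeR adjusted p = 0.40), and -0.12 without control libraries 1 and 2. Pcdh9 had 316, 183 and 196 CPM in control and 212, 225, 169 and 176 CPM after VNS, a spread that rested on control library 1 (-0.24, SE 0.22; 0.046 without that library and -0.013 without control libraries 1 and 2). Pcdh11x, an X-linked gene, was uneven within both groups, from 3.48 to 57.9 CPM over the 7 libraries (-1.39, SE 0.75; -0.49 without control libraries 1 and 2).

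Delta-2 protocadherins summed to 97.5 to 307 CPM in control and to 310 to 409 CPM in VNS libraries, with control library 1 the lowest. Pcdh8 (NM_022868, rn5 chr15:65857394-65861171), known as arcadlin, is induced by neuronal activity and takes N-cadherin off the synaptic surface. It had 8.86, 63.4 and 96.7 CPM in control and 100.1, 96.6, 112 and 105 CPM after VNS. The VNS libraries were close together, the controls were spread widely, and control library 3 lay just above the lowest VNS library. The log2 fold change was 0.88 (SE 0.62; edgeR adjusted p = 0.51), and 0.086 without control libraries 1 and 2. Pcdh19, the X-linked gene mutated in an epilepsy of girls, had 18.9, 72.9 and 95.2 CPM in control and 117, 106, 147 and 92.5 CPM after VNS (0.89, SE 0.47; 0.27 without those 2 libraries). Pcdh17, which acts at presynaptic terminals, had 61.8, 112 and 109.6 CPM against 116, 101, 142 and 107 CPM, and only control library 1 stood apart (0.30, SE 0.23; 0.073 without control libraries 1 and 2). Pcdh18 was the exception in direction, with 7.90, 23.4 and 5.22 CPM in control and 5.07 to 7.32 CPM after VNS (-1.08, SE 0.47; 0.12 without control libraries 1 and 2).

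Pcdh20 (rn5 chr15:75353079-75359335, 2 exons), a single protocadherin outside the delta groups, had 32.7, 65.6 and 104 CPM in control and 162, 96.9, 106 and 87.7 CPM after VNS. The log2 fold change of 0.74 (SE 0.38; edgeR adjusted p = 0.42) became 0.11 without control libraries 1 and 2. Pcdh8, Pcdh19 and Pcdh20 thus shared an order: control library 1 lowest, control library 2 next, and the other 5 above. The forebrain excitatory markers were low in the same 2 libraries, but in the other order, with 243 CPM in control library 1 and 11 in control library 2. Their part was not tested.

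Clustered protocadherins of the gamma group mostly had higher means after VNS: 11 of 13 had a positive log2 fold change (49.2% of all records), the median was 0.41, and 5 had an unadjusted p under 0.05, all with higher means, beside 4.79% of all records. Both control libraries 1 and 2 were below the other 5 for 7 of the 13 (18.3% of all records), and the gamma median was 0.061 without them. These 13 records share their constant exons and lie in one array, so they are not independent, and reads over the shared exons were counted for none of them. Reads over similar variable exons could also be divided between members.

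The gamma A members summed to 85.5, 78.4 and 121 CPM in control and 141, 125, 142 and 135 CPM after VNS. The groups did not overlap, as was so for 9.28% of all records taken singly. The gap between control library 3 and VNS library 2 was small, and only control libraries 1 and 2 lay far below. Pcdhga8 (NM_001037156) had 10.3, 9.20 and 14.4 CPM in control and 15.3, 17.9, 20.1 and 15.5 CPM after VNS, all above the controls (0.60, SE 0.20; edgeR adjusted p = 0.40). Pcdhga7 had 11.9, 13.8 and 22.9 CPM in control and 30.4, 22.5, 29.7 and 25.6 CPM after VNS (0.74, SE 0.24). Pcdhga3 had 3.97, 3.33 and 7.52 CPM against 9.93, 7.43, 8.94 and 9.39 CPM (0.86, SE 0.30). In both, control library 3 lay inside the VNS range, as it did for Pcdhga2, with 13.4, 14.6 and 21.0 CPM in control and 28.8, 19, 23.6 and 29.5 CPM after VNS (0.63, SE 0.22). Without control libraries 1 and 2 the estimates of these 4 lay between 0.23 and 0.26. Pcdhga11 (NM_001037153) behaved differently: its controls were tightly grouped at 9.88, 10.1 and 9.78 CPM, and the VNS libraries stood at 10.5, 13.4, 13.8 and 15 CPM. Its estimate of 0.41 (SE 0.16; edgeR adjusted p = 0.40) was 0.42 without control libraries 1 and 2.

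Pcdhgc3 (rn5 chr18:30648710-30662065), the gamma-C member known for promoting dendrite branching, had 170.1, 90.5 and 131 CPM in control and 109, 134, 135 and 139 CPM after VNS. Group means were 131 ± 39.8 (SD, n = 3) and 129 ± 13.6 CPM (SD, n = 4), and the log2 fold change was -0.014 (SE 0.21; edgeR adjusted p = 0.98), and -0.032 without control libraries 1 and 2. It held the largest share of the counts on gamma records in every hippocampal library. The share was 60.2% (95% Wilson interval 59.4% to 61.0%) in control library 1, 47.5% in library 2 and 44.8% in library 3. After VNS it was 38.2% (37.5% to 38.9%), 45.6%, 41.9% and 45.4%. These intervals cover counting error only, and the group ranges overlapped.

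The 11 beta members showed no common direction, with 6 positive and 5 negative estimates, a median of 0.065 and 0 at an unadjusted p under 0.05. Their sum was 64.2 to 77.6 CPM in control and 49.0 to 92.4 CPM in VNS libraries. The lowest sum came from the shallow VNS library 3, where Pcdhb8 had 0.813 CPM, against 3.26 to 9.82 CPM elsewhere. The only alpha record with a symbol, Pcdha4, had 4.81 to 6.90 CPM in control and 5.69 to 7.79 CPM after VNS. Several records without a symbol share its exons on the same strand and were not members, so Pcdha4 does not stand for the alpha group. Many clustered promoters are known to carry a conserved element that contains CGCT. Those 4 letters, searched on both strands, were in 23 of the 24 clustered promoters in the table (95.8%), in 14 of 19 other member promoters (73.7%) and in 55.1% of all windows.

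Genes whose products bind or process cadherins were read from lists beside the members, and edgeR called 0 of them in hippocampus. Catenins, which link cadherins to actin, had 2 positive and 5 negative estimates. Ctnna1 (alpha-catenin) had 138, 124 and 86.7 CPM in control and 69.7, 84.4, 68.9 and 85.6 CPM after VNS, all below the controls (-0.59, SE 0.18; -0.18 without control libraries 1 and 2). Ctnnd1, the p120 catenin that keeps cadherins at the membrane, had 64.2 to 92.6 CPM after VNS and 92.1 to 145 CPM in control (-0.43, SE 0.20; -0.22 without those 2 libraries). All 9 WAVE complex genes, through which several protocadherins reach actin, had positive estimates, beside 49.2% of all records, with a median of 0.38, and of -0.0056 without control libraries 1 and 2. Those 2 libraries both lay below the other 5 for 8 of the 9, beside 18.3% of all records. Wasf1, the neuronal WAVE protein, had 80.1, 49.4 and 259.5 CPM in control and 426, 231.5, 453.5 and 294 CPM after VNS, with control library 3 inside the VNS range (1.44, SE 0.55; 0.42 without control libraries 1 and 2). Abi1, of the same complex, had 64.8, 77.6 and 138 CPM against 198, 118, 145.5 and 125 CPM (0.65, SE 0.30; 0.079 without them).

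The 7 shedding and turnover genes had 3 positive and 4 negative estimates. Adam10, which cuts the ectodomain of N-cadherin and of gamma protocadherins, had 106, 100.3 and 99.3 CPM in control and 83.7, 90.02, 75.6 and 85.2 CPM after VNS. All VNS libraries lay below the controls, and the estimate of -0.29 (SE 0.12; edgeR adjusted p = 0.40) was -0.26 without control libraries 1 and 2. Psen2, a gamma-secretase subunit, stood at -0.41 (SE 0.24; -0.20 without them).

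The 14 other cadherin superfamily records had 5 positive and 9 negative estimates, with a median of -0.41, and of 0.0013 without control libraries 1 and 2. Clstn2, a synaptic calsyntenin, stood at 1.17 (SE 0.38) and at 0.44 without those libraries. Both records of Ret, a receptor tyrosine kinase with cadherin-like domains, were on the other side, at -1.65 (SE 0.55) and -2.01 (SE 0.70), and at 0.34 and 0.21 without them. Nectins and afadin, the other adhesion system of the same junctions, had 4 positive and 1 negative. Nectin1 stood at 0.64 (SE 0.21; 0.36 without control libraries 1 and 2) and the sparsely counted Nectin4 at 1.03 (SE 0.61; 0.30 without them).

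Regulators of the clustered promoters had 4 positive and 4 negative estimates. The cohesin genes Smc1a and Smc3 stood at 0.44 (SE 0.21) and 0.41 (SE 0.22), and at 0.41 and 0.31 without control libraries 1 and 2. Both were highest in the shallow VNS library 3, at 100.2 and 76.0 CPM. The other VNS libraries had 64.8 to 70.7 and 41.5 to 47.0 CPM, and the controls 44.7 to 66.3 and 34.7 to 41.7 CPM. The 3 kinases bound by clustered protocadherins had positive estimates, with a median of 0.28, and of 0.023 without control libraries 1 and 2. Ptk2b (PYK2) had 162, 26.3 and 593 CPM in control and 1039, 545, 751 and 720.5 CPM after VNS (1.55, SE 0.83; 0.35 without them). Fyn, a Src-family kinase, stood at 0.24 (SE 0.14; 0.023 without them). For all 3 kinases control libraries 1 and 2 both lay below the other 5, beside 18.3% of all records.

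In cortex the low counts limited what could be read. Members received 3567 counts over all 8 libraries, 5 of the 54 had no count, 26 had under 20 in all, and 15 passed the filter. EdgeR called 0 of the 15, beside 0.0257% of 3884 records, and 0 had an unadjusted p under 0.05, beside 2.39%. DESeq2 and limma-voom also called 0. No member had groups that did not overlap, beside 2.29% of all records, and the median log2 fold change was 0.27 (9 positive, 6 negative) against -0.016 over all records, of which 47.9% were positive. Records that overlap one on the opposite strand held 35.5% of cortex counts, against 9.60% in hippocampus. No member overlaps such a record, which does not show whether the members' own reads were all counted. Cortex reads were counted with a strand option and hippocampal reads without one. The part of that option in the low cortex counts was not tested, and cortex values were not compared with hippocampal levels.

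The best counted member in cortex was Pcdh7, with 1225 counts in all and 314 to 475 CPM in control and 376 to 578 CPM in VNS libraries. Pcdhgb8, a gamma B member, had the smallest p, with 32.8, 28.3, 32 and 17.5 CPM in control and 49.7, 53.5, 32.3 and 68.8 CPM after VNS (0.88, SE 0.44; edgeR adjusted p = 1). The highest control exceeded the lowest VNS library only narrowly. Pcdh8 had 157, 120.5, 147 and 72.9 CPM in control and 86.9, 53.5, 124 and 71.5 CPM after VNS (-0.56, SE 0.33), so its cortex estimate had the other sign from that in hippocampus, a difference that was not tested. Pcdh17 had 68.8, 26.0, 19.2 and 52.5 CPM in control and 68.3, 83.3, 48.5 and 60.5 CPM after VNS (0.65, SE 0.43). In both, the groups overlapped.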

How the data were processed

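The authors deposited whole-number counts of reads, one row for each RefSeq transcript; featureCounts 1.4.6-p2 produced them, per the file headers. The submitters' processing notes also name FastQC 0.10.1, Trimmomatic, Bowtie2, SAMtools 0.1.19, edgeR and build rn5. Per the labels, cortex RNA was polyA-selected and hippocampal RNA ribosome-depleted. Cortex reads were counted with a strand option and hippocampal reads without one, per the file headers. The record length column of the deposited files (another kind of value) gave exon lengths, from which sequence shared with other records was removed.

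Symbols came from a RefSeq table of GRCr8, which named 17339 of 18278 records and left 939 without a symbol. Gene coordinates are those of the deposited files (rn5). Promoters come from the same RefSeq release and match 43 of 54 members.

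Each tissue was fitted apart in R 4.3.3 with edgeR 4.0.16 (filterByExpr at a count of 10 and a total of 15, TMM scaling, glmQLFit and glmQLFTest, two-sided, Benjamini-Hochberg over all tested records, threshold 0.05). CPM uses TMM-scaled library sizes, and CPM at a floor of 3 counts is the limit that a count of 0 allows. Alternatives used DESeq2 1.42.0, limma-voom (limma 3.58.1), other scaling and filters, counts summed per symbol, and left-out libraries. The test was tried on simulated data. No pair of libraries agreed within sampling noise, the lowest chi-square over its degrees of freedom being 24.2 in hippocampus and 3.12 in cortex. The name of 1 cortex column had a letter more than the matching label.

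Members and lists were chosen with earlier results of these data known. Values in each library were given for the 12 members with the smallest p in hippocampus, the 8 with the highest CPM per kilobase of record, and a set of well-known members. In cortex, and in each partner list, those with the smallest p were named (3 and 2). The split of libraries by Neurod6 under 5 CPM uses a measured gene, so it was described library by library and not tested.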

Additional observations from a re-analysis of the deposited data

Results flagged for a closer look

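Of the groups of 4 libraries examined for the named members (31 groups), 1 held a library apart from the others. Pcdhgc3 stood at 109.3 CPM in hippocampal VNS library 1, against 134.5 to 139.2 CPM in the other 3 VNS libraries. Chance alone sets such a library apart in about 1 in 20 groups.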

How the results depend on the processing

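In hippocampus, records called went from 0 to 17 with DESeq2 and to between 0 and 1377 with 1 library left out, and members called from 0 to 1 and to between 0 and 15; the highest values came without control library 3. The members' median log2 fold change of 0.15 ran from 0.12 to 0.23 with 1 library left out and was 0.073 without control libraries 1 and 2. In cortex, 1 called record became 5 with no filter, 0 with limma-voom and 0 to 4 with 1 library left out, and member calls stayed at 0. Of 389 values of named members under other settings, 368 kept direction and side of the threshold, 12 passed it and 9 took the other sign. Those 9 were Pcdhgc3 (0.028 with limma-voom, 0.22 without control library 1, 0.060 without VNS library 1; -0.22 to 0.22 with 1 library left out), Pcdh9 (0.046 without control library 1; -0.39 to 0.046), Cdh13 (0.31 without control library 2, 0.036 without VNS library 1, 0.11 without control libraries 1 and 2; -0.44 to 0.31), and, without those 2 controls, Cdh10 (-0.069) and Cdh23 (0.17). The cause was not tested. No paired analysis was possible because the labels give the groups no shared replicate numbers. Low counts limit cortex most, where 26 members had under 20 counts in all.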
